A study of Mus musculus with 16 samples.

Results

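The 32 genes described here encode enzymes of cholesterol synthesis, enzymes of fatty acid synthesis and desaturation, and the proteins that control both pathways. They were listed by symbol for their place in these pathways, with earlier results of these data known, and all 32 were present among the 17655 genes of the expression tables. RNA was sequenced from preSC, mouse cells of a precancerous stage of small cell lung cancer (SCLC), which are labelled as Chga-positive neuroendocrine cells of the lung. All cells were Rb1 null, Trp53 null and Rbl2 heterozygous null, and all were given doxycycline at 1 µg/mL for 48 h in medium with bovine growth serum. The 8 samples called empty carried an empty lentiviral vector and the 8 samples called Wnt5a carried a lentivirus with Wnt5a, a secreted Wnt ligand. The promoter that drives the lentiviral insert, the number of clones and the number of cultures are not given in the labels.

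Cholesterol is built from acetyl-CoA through mevalonate, squalene and lanosterol by a series of enzymes. When sterol in the endoplasmic reticulum is low, Scap escorts the precursors of the transcription factors Srebf1 and Srebf2 to the Golgi, where they are cleaved and released to activate the genes of the pathway. Insig1 and Insig2 hold Scap back when sterol is plentiful. Srebf2 is best known for the sterol genes and Srebf1 for the fatty acid genes, whose products supply and modify the fatty acyl chains of membrane lipids.

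Promoter sequence is shown for 3 of the sterol genes: Hmgcs1, which had the lowest adjusted p of the 32, and Msmo1 and Hsd17b7, which had the largest differences among the sterol genes. Each line gives the 250 bases before the RefSeq gene start, 5′ to 3′ on the strand of the gene. Capitals mark matches to the sterol regulatory element cores CACCCCAC and TCACNCCAC, the E-box CACGTG and the NF-Y box CCAAT, which reads ATTGG where it lies on the opposite strand. The build of the sequences is GRCm38.p6, and the windows are chr13:119690101-119690350 (plus strand) for Hmgcs1, chr8:64733579-64733828 (minus strand) for Msmo1 and chr1:169969206-169969455 (minus strand) for Hsd17b7.
Hmgcs1: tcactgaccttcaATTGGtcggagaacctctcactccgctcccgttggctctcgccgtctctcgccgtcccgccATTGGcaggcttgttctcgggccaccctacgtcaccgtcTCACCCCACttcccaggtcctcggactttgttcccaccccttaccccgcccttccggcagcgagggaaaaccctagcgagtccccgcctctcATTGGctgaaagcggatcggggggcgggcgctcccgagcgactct
Msmo1: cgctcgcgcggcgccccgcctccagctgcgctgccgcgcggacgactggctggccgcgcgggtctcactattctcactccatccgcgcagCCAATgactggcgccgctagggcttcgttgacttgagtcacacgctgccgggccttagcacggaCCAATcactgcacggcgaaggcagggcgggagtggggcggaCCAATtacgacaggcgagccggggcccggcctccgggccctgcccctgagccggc
Hsd17b7: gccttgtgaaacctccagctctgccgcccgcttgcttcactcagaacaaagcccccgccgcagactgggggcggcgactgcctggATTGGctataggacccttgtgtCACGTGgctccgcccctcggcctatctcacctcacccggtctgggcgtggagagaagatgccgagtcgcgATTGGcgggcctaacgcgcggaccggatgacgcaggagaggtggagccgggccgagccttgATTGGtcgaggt

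In Hmgcs1 a single stretch matched both sterol cores, which overlap there, with its first base at -137 from the gene start. Msmo1 and Hsd17b7 had no match to either core in their windows. Msmo1 held CCAAT at -160, -96 and -55, and Hsd17b7 held it at -165, -73 and -12 beside an E-box at -143. The RefSeq table had windows of 250 bases before to 50 after the start for 25 of the 32 genes, 33 windows in all. On both strands, CCAAT was found in 63.6% of these 33 windows and in 37.4% of all 32851 windows of the table. CACGTG was found in 18.2% against 7.15%, CACCCCAC in 6.06% (Acat2 and Hmgcs1) against 2.87%, and TCACNCCAC in 3.03% (Hmgcs1) against 1.24%. These matches describe the letters of the windows, and binding was not measured. Windows were absent from the table for Fdps, Fdft1, Sqle, Stard4, Scd1, Scd2 and Fads1.

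Values are normalised read counts, that is, reads per gene divided by 1 factor per sample. The samples held 7526676 to 8859862 reads. Counts of samples 1 to 4 of a group differed from each other by no more than about sampling noise, as did those of samples 5 to 8, so each set was averaged and counted as 1 library, A and B. Every comparison below therefore rests on 2 libraries per group, and SDs are over these. Samples of 1 library are not replicates, so lack of overlap between samples adds little to lack of overlap between libraries. Nothing in the labels says that the libraries came from separate cultures, so p-values measure only the spread between these libraries, which may be technical. Wnt5a itself was 144.2 and 99.8 in the empty libraries and 1048.7 and 1508.9 in the Wnt5a libraries (limma adjusted p = 0.0010; exact permutation p = 0.333, the smallest that 2 against 2 libraries allow). The neuroendocrine markers Chga, Chgb, Syp, Insm1, Calca, Uchl1 and Ncam1 were abundant, with Chga between 3007 and 4370. Together these 7 summed to 28393 and 27834 in empty cells and 25266 and 24002 in Wnt5a cells. All 7 had lower values with Wnt5a (median log2 difference -0.12). The list held 1 further marker that is not reported here, so these values do not describe the whole list. Calca, the calcitonin gene, was at -0.31 with no overlap of the samples (adjusted p = 0.154 by limma and 0.043 by DESeq2). The part of these shifts in the lower sterol gene values described below was not tested. Because these are bulk samples, fewer cells of a type and less RNA per cell cannot be told apart.

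The markers of other cell types were low with 1 exception. The adipocyte marker Adipoq was at most 0.276, the endothelial markers Pecam1 and Cdh5 at most 4.14, the leukocyte markers Cd68 and Lyz2 at most 12.5, and 4 lung epithelial markers summed to 42.5 to 47.9. Of 5 fibroblast markers, Col1a1, Col1a2, Col3a1 and Pdgfra were at most 9.41, with Col1a2 and Col3a1 at 0.254 or less. Dcn, the matrix proteoglycan decorin, was 596.8 and 340.2 in empty cells (libraries A and B) and 240.9 and 245.6 in Wnt5a cells. The fibroblast list summed to 603.7 and 353.4 in empty cells and to 244.2 and 247.7 in Wnt5a cells, and its part in the lower sterol gene values described below was not tested.

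All 32 genes were expressed well above the minimum mean value of 10, and the fewest reads behind a library value were 231, for Tm7sf2. Per kilobase of the longest transcript, Scd2, a stearoyl-CoA desaturase, had the highest level, 754.7 ± 226 (SD, n = 2) in the empty libraries. Srebf2, Sqle, Srebf1 and Hmgcs1 followed at 566 to 525.5 normalised reads per kilobase, and these 5 neighbours in the order overlapped between their libraries. The other stearoyl-CoA desaturase, Scd1, was at 31.8 ± 14.1 per kilobase, and Tm7sf2, a sterol reductase, was lowest at 20.7 ± 0.112. Between neighbours in the order of empty levels, the libraries overlapped in 22 of 31 cases. The largest shift in rank between the groups was that of Fads1, from 7 in the empty libraries to 2 in the Wnt5a libraries, with 456 ± 73.3 and 583 ± 56.0 per kilobase.

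**Figure D1:**
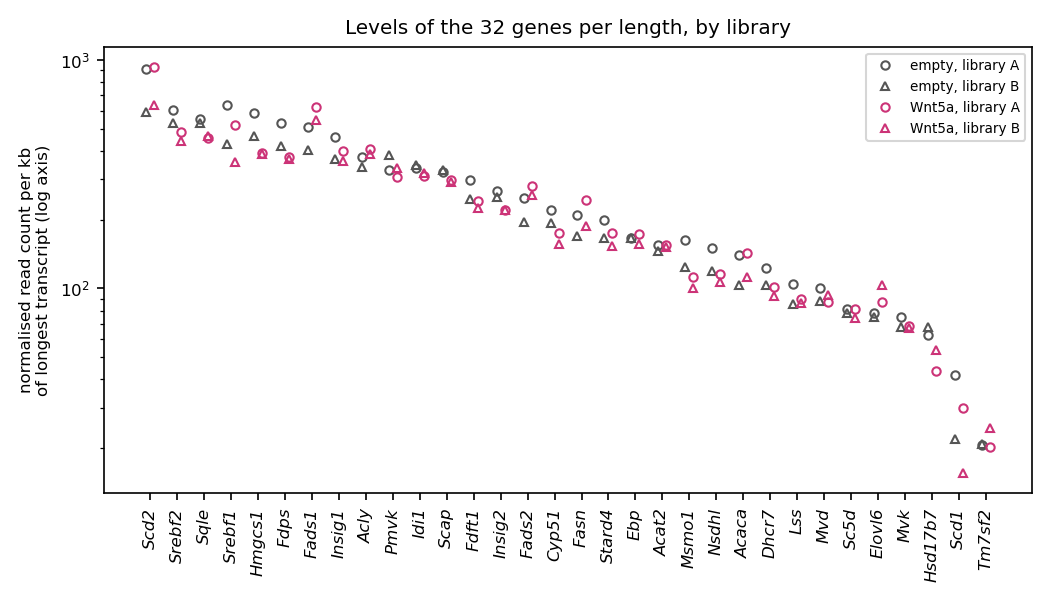
Normalised read count per kilobase of the longest transcript (log axis) for the 32 genes, ordered by their mean in the empty libraries, with 1 point per library (circles library A, triangles library B; grey empty, pink Wnt5a). Scd2 is highest at a mean of 754.7 in the empty libraries and Tm7sf2 lowest at 20.7.

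The question asked of these genes was whether their expression differs between cells with and without the Wnt5a lentivirus. None of the 32 passed the threshold. As a description without a test, 22 of the 24 sterol genes had lower values with Wnt5a (median log2 difference -0.18). Of all genes tested, 49.3% were lower. The 24 comprised the sterol enzymes, Stard4 and the 5 regulators, which control both pathways. Lower values were found for 6 of 7 mevalonate enzymes, 3 of 3 squalene enzymes and 7 of 8 enzymes after lanosterol. Stard4 and all 5 regulators were lower as well. Of the 8 fatty acid genes 7 had higher values (median 0.17), where 50.7% of all genes were higher, but this median was -0.04 once the median of each chromosome was subtracted. Other genes of the same pathways, described further on, were not split in this way: 6 of 14 of sterol synthesis and SREBP processing were lower and 10 of 23 of fatty acid synthesis higher. Over the 32 genes 23 were lower and 9 higher, with a median of -0.13, against a median of 0.0026 over the 12357 genes tested. Scd1 was the fatty acid gene that was lower, and Acat2 and Tm7sf2 were the sterol genes that were higher.

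By limma, with p-values adjusted by Benjamini-Hochberg over the 12357 genes, 0 of the 32 had an adjusted p under 0.05, where 2.06% of all genes did, and adjusted p ran from 0.134 for Hmgcs1 to 0.964 for Ebp. At an unadjusted p under 0.05, 8 were lower and 2 higher (background 7.45% lower and 8.63% higher). The 8 lower genes were Hmgcs1, Fdps, Sqle, Cyp51, Msmo1, Hsd17b7, Srebf2 and Insig2, and the higher ones Fads1 and Elovl6. On recovered reads, edgeR called 0 (1.99% of all genes) and DESeq2 called 1 (4.35% of all genes), which was Hmgcs1 at an adjusted p of 0.014. The 95% intervals of the differences reached as low as -1.37, for Scd1, and as high as 0.66, for Fads1.

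The limma calls depended on which libraries entered. Without empty library B, 8 genes passed, all lower, against 8.89% of all genes: Hmgcs1, Fdps, Cyp51, Msmo1, Nsdhl, Srebf1, Srebf2 and Scd1. Without empty library A, 2 passed, both higher, against 3.99% of all genes: Fads1 and Fads2. Without either Wnt5a library the count stayed at 0. In each such fit 1 group has a single library, which is assumed to vary like the others. Libraries A and B are then also unevenly split between the groups. Library B was below library A in both groups for 24 of the 32 genes (36.0% of all genes), so that gap enters these differences. The median of the 32 genes moved to -0.246 without empty B, -0.0129 without empty A and -0.0623 without Wnt5a B.

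Both Wnt5a libraries lay below both empty libraries for 13 of the 32 genes (40.6%), all of them sterol genes, where 21.5% of all genes did so. Both lay above for 4 genes, Acly, Fads1, Fads2 and Elovl6, where the background was 22.7%. The remaining 15 genes overlapped. Comparing A with A and B with B, 18 of the 24 sterol genes were lower in both pairs (75.0%, against 34.7% of all genes), and 7 of the 8 fatty acid genes were higher in both (36.5% of all genes were). Of these 8, 7 lie on chromosomes 11 and 19, whose genes were higher as a whole.

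**Figure D2:**
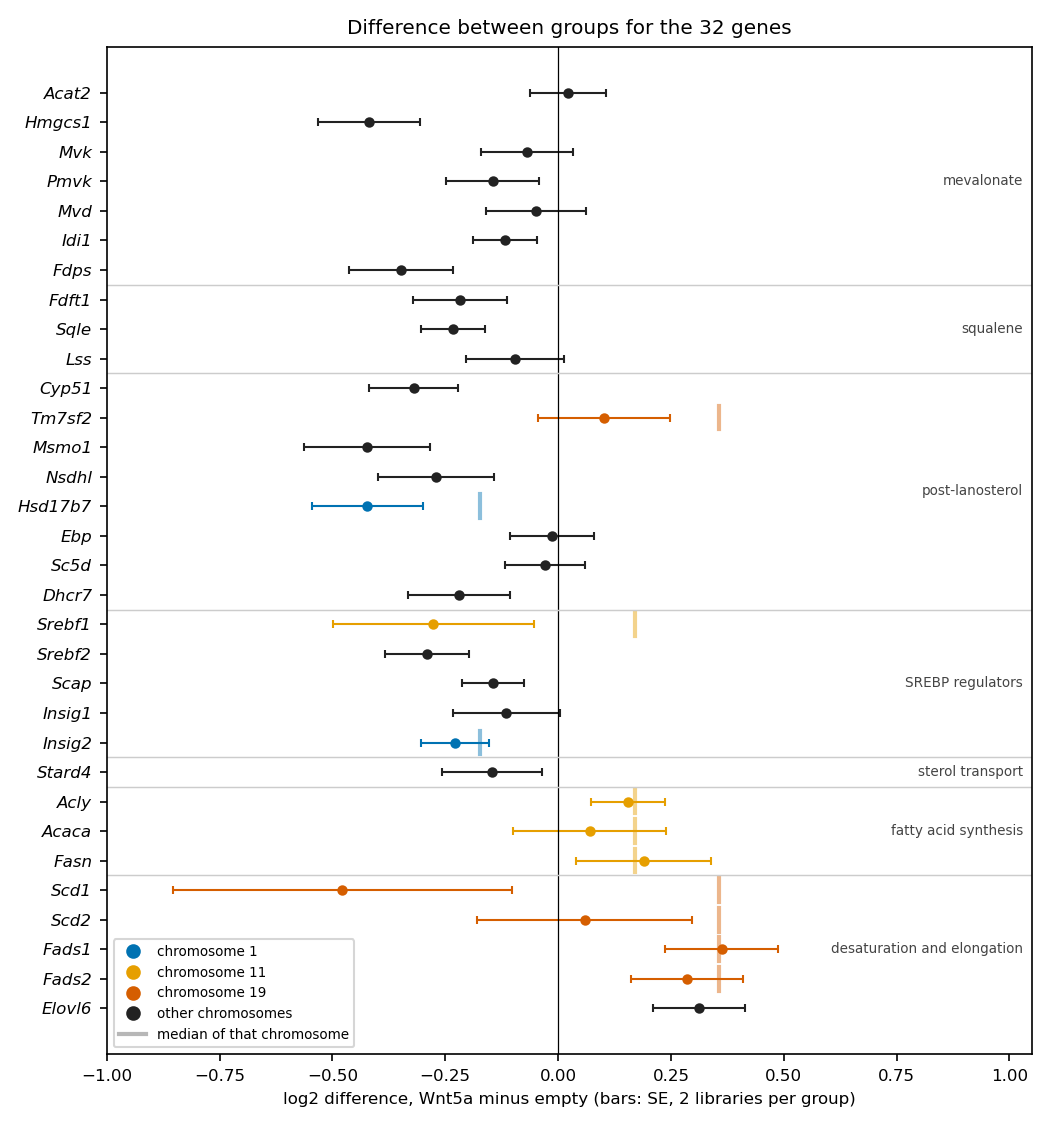
Log2 difference between the Wnt5a and the empty libraries for each of the 32 genes, grouped by role (bars: SE of the limma fit, 2 libraries per group). Colours mark genes on chromosomes 1, 11 and 19, with a tick at the median of all tested genes of that chromosome; 22 of 24 sterol genes lie left of 0 and 7 of 8 fatty acid genes right of it.

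Of the 7 mevalonate enzymes 6 were lower, with a median of -0.12. Hmgcs1, which joins acetyl-CoA to acetoacetyl-CoA, had the largest difference of this group. Its value was 2025.7 and 1614.9 in the empty libraries and 1360.1 and 1345.2 in the Wnt5a libraries, or 1820.3 ± 290.5 against 1353 ± 10.5 (SD, n = 2). Across samples it ran from 1519.9 to 2073 with a median of 1846.5 in the empty group, and from 1304 to 1417.5 with a median of 1346.5 in the Wnt5a group. All 8 Wnt5a samples were below all 8 empty samples, and empty A stood above empty B. The difference was -0.42 (SE 0.11). Fdps, which makes farnesyl diphosphate, followed at -0.35, and its libraries showed the same order, with empty A highest at 1571.5 and the Wnt5a libraries at 1107 and 1089. Idi1, the isopentenyl diphosphate isomerase, was at -0.12 and also did not overlap. Pmvk, Mvk and Mvd, the kinases and the decarboxylase between them, were at -0.15, -0.07 and -0.05 with overlapping libraries. Acat2, the cytosolic thiolase at the start of the route, was at 0.02.

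The 3 squalene enzymes were all lower, with a median of -0.22. Sqle, squalene epoxidase, was 2465 and 2363 in empty libraries and 2039 and 2067 in Wnt5a libraries, a difference of -0.23 (SE 0.07) with no overlap between libraries or samples. Fdft1, squalene synthase, was at -0.22, and Lss, lanosterol synthase, at -0.10 with overlapping libraries.

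Among the 8 enzymes after lanosterol, 7 were lower, with a median of -0.24. Msmo1, the methylsterol monooxygenase, was 484.5 and 369.4 in empty libraries and 332.5 and 298.9 in Wnt5a libraries, that is, 427 ± 81.3 against 315.7 ± 23.8 (SD, n = 2). Its samples ran from 351 to 515.7 (median 429) in the empty group and from 281 to 352 (median 309) in the Wnt5a group. The libraries did not overlap, but the highest Wnt5a sample slightly exceeded the lowest empty sample. The difference was -0.42 (SE 0.14; limma adjusted p = 0.198), with -0.228 without empty A and -0.618 without empty B, where the adjusted p was 0.0023. Hsd17b7, a sterol ketoreductase, was 287.3 and 312.2 in empty libraries and 200.8 and 248.0 in Wnt5a libraries, or 299.7 ± 17.6 against 224 ± 33.4. Its samples ran from 267.8 to 321.6 (median 304.7) and from 189.7 to 268.9 (median 216.6), so that again only the ends of the groups met. Its difference was -0.42 (SE 0.12; limma adjusted p = 0.157) and -0.271 without Wnt5a A, and unlike Msmo1 it was higher in library B than in library A of both groups. The gene is on chromosome 1, whose tested genes had a median of -0.17.

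Cyp51, the lanosterol demethylase, was at -0.32, Nsdhl at -0.27 and Dhcr7, the last reductase, at -0.22, each without overlap of the libraries. Ebp, the sterol isomerase, and Sc5d, the desaturase, were at -0.01 and -0.03, and Tm7sf2 was at 0.10. These 3 overlapped between the groups.

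All 5 regulators were lower, with a median of -0.23. Srebf2 was 3057 and 2691 in empty libraries and 2453 and 2241 in Wnt5a libraries, or 2874 ± 258 against 2347 ± 149.5 (SD, n = 2), and all 8 Wnt5a samples were below all 8 empty samples. Its difference was -0.29 (SE 0.09; limma adjusted p = 0.189). Insig2 at -0.23 and Scap at -0.14 also did not overlap between libraries or samples, and Insig2, which lies on chromosome 1, was at -0.06 relative to the median of that chromosome. Insig1 was at -0.11 with overlapping libraries. Srebf1 was at -0.28 with an SE of 0.22. Library A was far above library B in both groups, with 2722 against 1843 in empty cells and 2223 against 1538 in Wnt5a cells. Stard4, a carrier of cholesterol between membranes, was at -0.15 with overlapping libraries.

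The 3 enzymes of fatty acid synthesis were all higher, with a median of 0.15. Acly, which makes cytosolic acetyl-CoA from citrate, was 1671 and 1502 in empty libraries and 1801.5 and 1725 in Wnt5a libraries, a difference of 0.15 (SE 0.08), and all 8 Wnt5a samples lay above all 8 empty samples. Fasn, the fatty acid synthase, was at 0.19 (SE 0.15), and Acaca, the acetyl-CoA carboxylase, at 0.07 (SE 0.17), both with overlapping libraries.

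Of the 5 genes of desaturation and elongation 4 were higher, with a median of 0.29. Fads1, a desaturase of polyunsaturated fatty acids, was 1756 and 1397 in empty libraries and 2156 and 1882 in Wnt5a libraries, or 1577 ± 254 against 2019 ± 194 (SD, n = 2). Its samples ran from 1365.5 to 1788.5 (median 1572) and from 1785.5 to 2222 (median 2021.5), so the groups touched at their ends. The difference was 0.36 (SE 0.12; limma adjusted p = 0.217). Fads2, the neighbouring desaturase of the same route, was 780.6 and 612.7 in empty libraries and 884.1 and 804.1 in Wnt5a libraries, or 696.7 ± 119 against 844 ± 56.6. Its samples ran from 586 to 805.7 (median 689.5) and from 766.7 to 904 (median 854.7). Its libraries did not overlap but its samples did, and the difference was 0.29 (SE 0.12; limma adjusted p = 0.333). Fads1 was at 0.198 without empty B and 0.527 without empty A, and Fads2 at 0.111 and 0.46, with limma adjusted p of 0.0089 and 0.021 without empty A.

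Elovl6, which elongates saturated and monounsaturated chains, was 466.0 and 446.9 in empty libraries and 519.4 and 617.7 in Wnt5a libraries, or 456 ± 13.5 against 568.5 ± 69.5 (SD, n = 2). Its samples ran from 400.6 to 513 (median 454.7) and from 508 to 634 (median 564.6), with a slight overlap. The difference was 0.31 (SE 0.10; limma adjusted p = 0.198), and 0.186 without Wnt5a B. Scd1 had the largest difference of the 32 genes and also the largest SE. It was 201.8 and 105.7 in empty libraries and 145.3 and 75.2 in Wnt5a libraries, or 153.8 ± 68.0 against 110.3 ± 49.6. Its samples ran from 95.9 to 222 (median 151) and from 68.7 to 158.7 (median 106), so the groups overlapped widely. The difference was -0.48 (SE 0.37; limma adjusted p = 0.635), and it was -0.47 when A was compared with A and -0.48 when B was compared with B. With 1 library left out it ranged widely: it was -0.948 without Wnt5a A and -0.941 without empty B, but -0.0144 without empty A and -0.00758 without Wnt5a B. The limma adjusted p without empty B was 0.012, and in the other 3 fits it was 0.215 or more. Scd2 was nearly level between the groups, with 4990 and 3244 in empty libraries and 5071 and 3462 in Wnt5a libraries, a difference of 0.06 (SE 0.24).

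**Figure D3:**
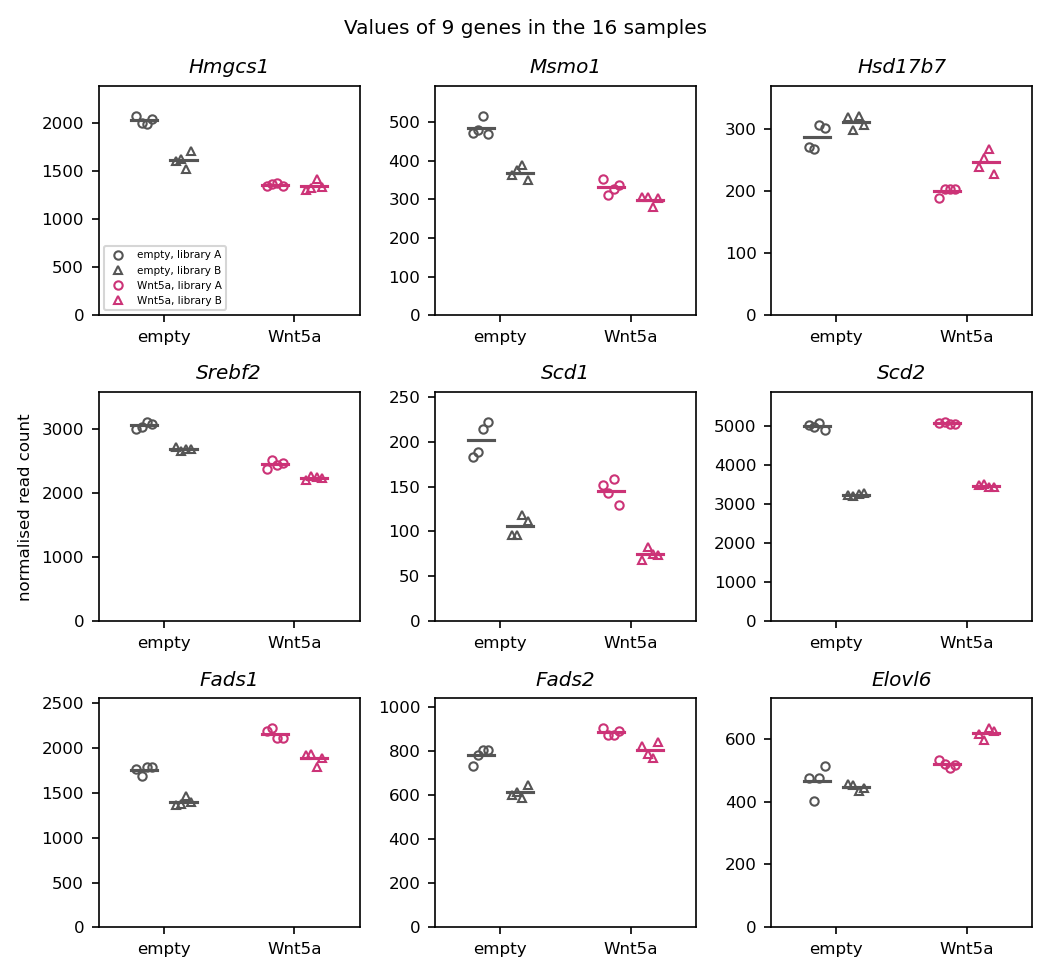
Normalised read counts of 9 of the genes in the 16 samples (grey empty, pink Wnt5a; circles samples 1 to 4, library A; triangles samples 5 to 8, library B; lines: library means; axes start at 0). Hmgcs1 and Srebf2 are separated between groups in all samples, while in Scd1 and Scd2 the gap between libraries A and B is larger than that between groups.

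The fatty acid genes were concentrated on chromosomes whose genes were shifted as a whole. Median log2 differences from empty to Wnt5a were 0.17 for the 1020 tested genes of chromosome 11 and 0.36 for the 412 of chromosome 19, against -0.17 on chromosome 1 (689 genes) and -0.02 to 0.02 on the other 17 chromosomes. Acly, Acaca and Fasn lie on chromosome 11 and Scd1, Scd2, Fads1 and Fads2 on chromosome 19, so that 7 of the 8 fatty acid genes are on these chromosomes and Elovl6, on chromosome 3, is the exception. After subtraction of the median of each gene's chromosome, the fatty acid median was -0.04 in place of 0.17. Relative to the chromosome, Fads1 was at 0.00, Fads2 at -0.07, Acly at -0.02 and Fasn at 0.02, while Elovl6 remained at 0.29. Scd2 was at -0.30 and Scd1 at -0.84 relative to chromosome 19. The fatty acid median also moved with single libraries, to 0.0554 without empty B, 0.0624 without Wnt5a A, 0.288 without Wnt5a B and 0.343 without empty A.

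The sterol genes were spread over more chromosomes. Of the 24, 20 lie outside chromosomes 1, 11 and 19, and 19 of these 20 were lower, with a median of -0.15 and 11 with both Wnt5a libraries below both empty ones. Over all genes tested, with those of chromosomes 1, 11 and 19 included, these shares were 49.3% and 21.5%. Srebf1, on chromosome 11, was at -0.45 relative to its chromosome, and Hsd17b7 was at -0.25 relative to chromosome 1. Tm7sf2, on chromosome 19, was at 0.10, and at -0.26 relative to that chromosome. The sterol median was -0.272 without empty B and -0.0984 without empty A.

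The libraries of a group also differed from each other in these genes. Library B was below library A in both groups for 24 of the 32 genes (75.0%), against 36.0% of all genes tested. The median difference of B from A was -0.22 in empty cells and -0.11 in Wnt5a cells, where that of all genes was near 0. Scd1 showed the widest gap, -0.93 in empty cells and -0.94 in Wnt5a cells, followed by Scd2 (-0.62 and -0.55), Srebf1 (-0.56 and -0.53) and Acaca (-0.45 and -0.35). Hsd17b7, Pmvk, Idi1 and Tm7sf2 were higher in B in both groups. For Hmgcs1 and Fdps the gap was -0.33 and -0.34 in empty cells and -0.02 for each in Wnt5a cells; whether these gaps differ was not tested. The gaps of the 2 groups were also averaged with their signs, so that opposite gaps cancel. In size this mean gap exceeded the difference between groups for 14 of the 32 genes (43.8%), a share close to the 49.2% of all genes.

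**Figure D4:**
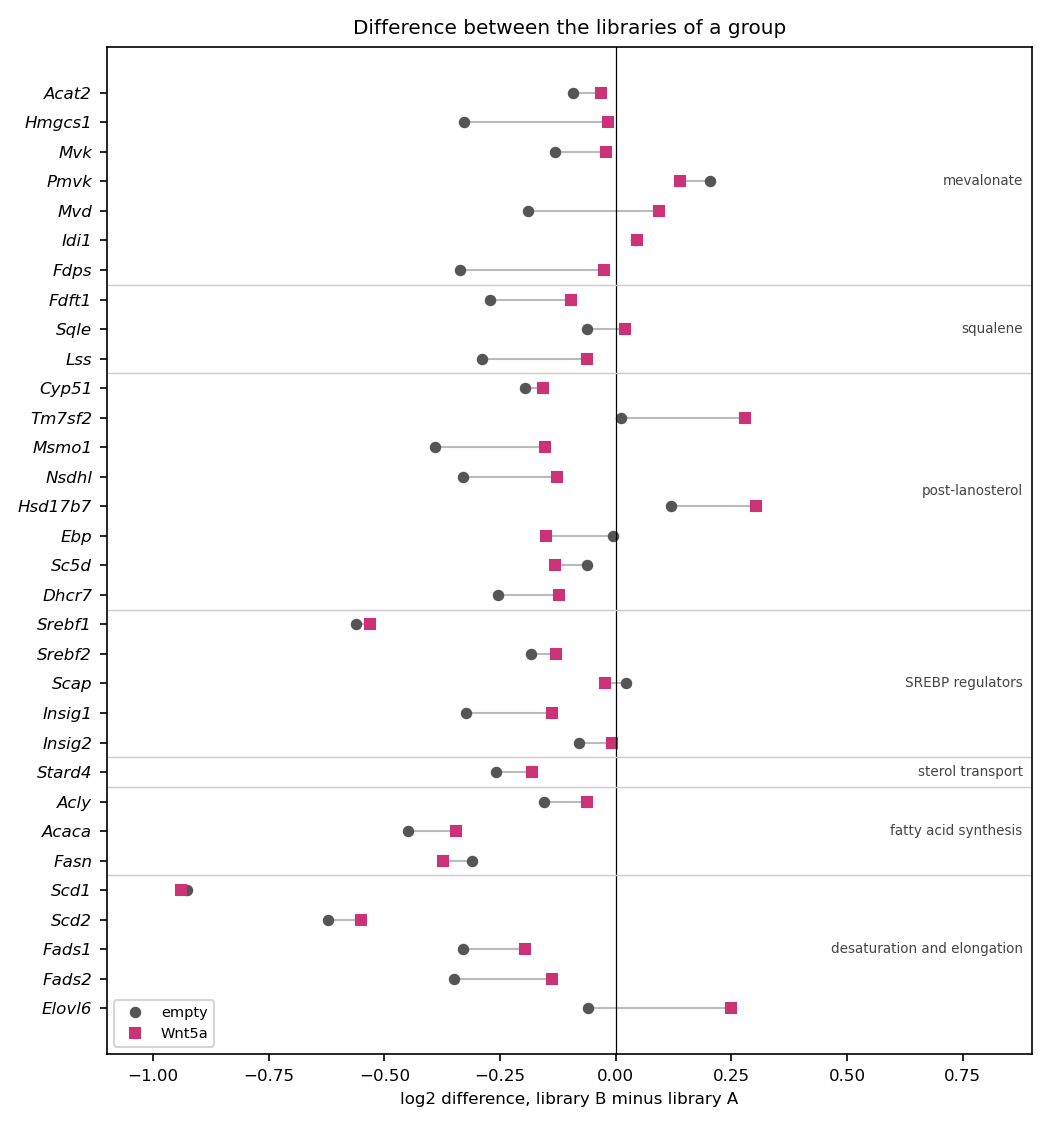
Log2 difference of library B from library A within the empty group (grey circles) and within the Wnt5a group (pink squares) for each gene, grouped by role. Both points lie left of 0 for 24 of the 32 genes, and Scd1, Scd2 and Srebf1 lie farthest to the left.

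Of 67 other genes of sterol and fatty acid metabolism, 63 were tested, and 3 passed the limma threshold, all higher, where 2.06% of all genes passed. Acsl5, which activates long-chain fatty acids, was 856.7 and 868.1 in empty libraries and 1269 and 1288 in Wnt5a libraries, and rose by 0.57 (SE 0.07; limma adjusted p = 0.013). Gpam, which starts glycerolipid synthesis, was 189 and 182 against 287.6 and 282.5 and rose by 0.62 (SE 0.09; adjusted p = 0.024). Osbp, an oxysterol-binding protein, was 592 and 604 against 838.5 and 835 and rose by 0.48 (SE 0.07; adjusted p = 0.026). In all 3 the samples of the groups did not overlap. All 3 lie on chromosome 19, and with the chromosome medians removed none passed, with limma adjusted p from 0.293 to 0.602. With 1 library left out, 4 of the 63 passed without empty A (3.99% of all genes), 18 without empty B (8.89%), 1 without Wnt5a A (1.34%) and 0 without Wnt5a B (1.12%).

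The median log2 difference was 0.01 over 14 further genes of sterol synthesis and SREBP processing and -0.09 over 15 genes of sterol uptake, export and storage. It was -0.05 over 23 other genes of fatty acid synthesis and -0.05 over 11 genes of fatty acid oxidation. By limma 0 genes of these 4 lists passed with a lower value, and at an unadjusted p under 0.05 there were 6 lower and 8 higher of 63 (background 7.45% and 8.63%). In either direction edgeR called 3 and DESeq2 8 (background 1.99% and 4.35%).

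The reads of some of the 32 genes cannot be assigned to them alone. Of all 50-base windows of the longest transcript, 47.4% were unique to Acaca, the remainder being shared with Gm5182, and 54.1% were unique to Acat2, the remainder being shared with Acat3. Idi1 (69.5%) and Fdft1 (69.3%, part of it shared with Ctsb on the opposite strand) were also below the other genes, which were at 86.4% or more. How the counting treated such reads and whether it used strand are not given in the sources used here.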

How the data were processed

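RNA was sequenced from 8 empty and 8 Wnt5a samples; per the labels' protocols, mRNA was purified with oligo-dT out of 500 ng total RNA. Per the submitters' processing notes, TopHat, Bowtie, HTSeq and DESeq2 were used; their versions and roles, the build and the annotation are not given in the sources used here. The deposited signal values, which the authors had normalised, were whole multiples of 1 step per sample in 100% of cases (tolerance 0.01), so that whole reads were recovered. Samples of a group were compared by the chi-square of their reads over its degrees of freedom, which was 0.987 to 1.05 within and 5.23 to 5.44 between libraries.

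Genes with a mean value of at least 10 entered a two-sided test in limma 3.58.1 under R 4.3.3 (lmFit, then eBayes with trend) on log2(value + 1). P-values were adjusted by Benjamini-Hochberg over 12357 genes, with a threshold of 0.05. This scale understates the change of low genes. Alternatives were edgeR 4.0.16, DESeq2 1.42.0, other pseudocounts, minimums and scalings, eBayes without trend, the 16 samples kept separate, a replicate block, removal of chromosome medians and omission of each library. The code was tested on simulated data. Leaving out genes on chromosomes 1, 11 and 19 was added after the data were seen.

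The 32 genes and the other lists were chosen with earlier results of these data known. Values in every library were to be given for the genes past the threshold and the 3 highest and 3 lowest differences; those of further genes were added after they were seen. Chromosomes and promoters came from RefSeq (GRCm38.p6), and lengths from the longest GENCODE M21 transcript; Ptprc, Kdr, Plin1 and Lep were not analysed here, and 1 neuroendocrine marker is not reported here.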

Additional observations from a re-analysis of the deposited data

Results flagged for a closer look

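Dixon's test was applied to 66 sets of 8 samples (each of the 32 genes and Wnt5a in each group). In 2 sets a sample stood apart from the other 7. Chance flags about 1 in 20 sets of independent samples. Each set here came from 2 libraries, so that rate cannot be set against this count. The lowest empty sample of Acat2 was at 284.5 normalised reads, where the group's median was 344.9. The lowest Wnt5a sample of Mvd was at 137.5, where the group's median was 169.7. Neither gene was among those whose libraries did not overlap.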

How the results depend on the processing

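The number of genes past the threshold over all genes was 254, and it was 538 by DESeq2, 4377 with the 16 samples kept separate, 158 without trend, 102 with a minimum of 50, 146 with no minimum and 138 to 1098 with 1 library left out. Of the 32 genes, 0 passed in the main comparison, 1 by DESeq2, 18 with the samples kept separate (4 higher, 14 lower) and 0 to 8 with 1 library left out. Of the other pathway genes 3 passed, against 8 by DESeq2, 25 with the samples kept separate, 0 with chromosome medians removed, 1 with no minimum and 0 to 18 with 1 library left out. The fit with samples kept separate counts samples of 1 library as replicates, although they differed by no more than about sampling noise. In that fit 35.4% of all genes passed, 56.2% of the 32 and 39.7% of the other pathway genes. With 1 library left out the median log2 difference ranged from -0.246 to -0.0129 for the 32 genes. It ranged from -0.272 to -0.0984 for the sterol genes and from 0.0554 to 0.343 for the fatty acid genes. The fatty acid median was -0.0441 with chromosome medians removed, as was Fads2 at -0.0719, and 0.311 with Elovl6 alone when genes on chromosomes 1, 11 and 19 were left out. A replicate block gave 2095 genes past the threshold (17.0%), 16 of the 32 (4 higher, 12 lower) and 15 of the other pathway genes. Same-numbered libraries deviated together, with a Pearson r of 0.44 across 12357 genes, which are not independent replicates, but 2 pairs do not show that the numbers pair the samples. For the 6 genes with the highest and lowest differences, 15 combinations of gene and setting brought an adjusted p under 0.05, with the direction kept. These combinations arose only with the samples kept separate, with a replicate block or with 1 empty library left out. The other alternatives run left the counts past the threshold within 1.5 times and the medians within the spread between libraries. The cause was not tested.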

Other observations

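The gap between libraries A and B was also examined in the other pathway lists. Library B was below library A in both groups for 14 of 23 other genes of fatty acid synthesis (60.9%), 8 of 15 genes of sterol uptake, export and storage (53.3%), 5 of 11 genes of fatty acid oxidation (45.5%) and 6 of 14 further genes of sterol synthesis and SREBP processing (42.9%). Over all genes tested the share was 36.0%. These values were not tested.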
